A study of Homo sapiens with 9 samples.

Results

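Transcripts of lysosomal enzymes, of the proton pump that acidifies lysosomes and of the autophagy machinery were described across the treatments of NCI-H1155 cells, an established human line from a neuroendocrine lung tumour. The 39 genes were taken by their symbols from the table of 23369 genes, and all 39 were found. They comprised 4 lysosomal membrane proteins, 15 enzymes and soluble cofactors, 8 proton pump genes, 2 transcription factors and 10 autophagy genes. The cells received 1 µM foretinib, 1 µM cabozantinib or the vehicle DMSO for 4 h, from 24 h after plating, and each group held 3 libraries. Both compounds inhibit several kinases, among them MET and KDR. Relative to cabozantinib, foretinib has a basic morpholine at the end of a propoxy chain on its quinoline, where cabozantinib has a methoxy, and an added fluorine on the middle ring. The labels give 1 cell line and name no other genotype or agent, so the results describe this line only.

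Lysosomes degrade proteins, lipids, glycans and glycogen with enzymes that work at acid pH, and the vacuolar ATPase pumps in the protons. Autophagy delivers cytoplasmic cargo to them in double-membraned vesicles, which carry proteins of the ATG8 family. The transcription factors TFEB and TFE3 are held in the cytoplasm by mTORC1 signalling, and on release they induce many of these genes through a promoter sequence called the CLEAR element. Compounds with a basic amine are known as a class to accumulate in acidic compartments; uptake into lysosomes was not measured here.

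The CLEAR element did not choose these genes, and it is shown to let its sites be set beside the expression values. As it is known as an element of such genes, its shares below are a description and not a test. RefSeq windows of 300 bases (250 before and 50 after the gene start, GRCh38.p14) were matched for 30 of the 39 genes. These 30 genes had 39 windows, and a gene was counted if any of its windows held the motif. LAMP2, CTSB, HEXA, ASAH1, PSAP, ATP6V1A, ATP6V1B2, ATP6V1C1 and ATP6V1H had no matched window. Its core, CACGTG, and its full consensus, the core preceded by GT and followed by AC, each read the same on both strands. The core stood in the windows of 6 of 30 genes (20%), against 8.77% of 27305 genes with a window and 12.9% of the 8953 of those that were also tested for expression. The full consensus stood in 2 of 30 (6.67%), GAA and MCOLN1, against 0.421% of all genes with a window and 0.905% of the tested ones. GAA held 2 copies and MCOLN1 held 1, besides a copy of the core. LAMP1 held 6 cores, CTSA held 2, and CTSD and ATP6V0D1 held 1 each. Sites of these 6 genes follow, each as 30 bases on the gene's own strand, with the motif in capitals and the position of the core's first base relative to the gene start. In the order printed they lie at chr17:80101493-80101522, chr17:80101538-80101567, chr19:7522598-7522627, chr13:113297199-113297228, chr20:45891298-45891327, chr11:1763957-1763986 and chr16:67481199-67481228, CTSD and ATP6V0D1 on the minus strand and the others on the plus strand.
GAA, site at -76: gggaggccgcGTCACGTGACccaccgcggc
GAA, site at -31: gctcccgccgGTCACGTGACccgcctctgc
MCOLN1, site at -14: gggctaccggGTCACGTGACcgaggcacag
LAMP1, site at -28: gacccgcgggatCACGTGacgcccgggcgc
CTSA, site at -25: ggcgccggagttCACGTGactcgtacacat
CTSD, site at -47: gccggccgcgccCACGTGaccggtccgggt
ATP6V0D1, site at -59: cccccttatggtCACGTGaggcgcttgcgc
A match shows only that these letters are present; binding of a factor was not measured.

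Values are normalised read counts, given as a mean ± SD (n = 3 libraries) where an error follows. Gene-assigned reads totalled 26996023 to 34062153 per foretinib library, 27264766 to 27522332 per cabozantinib library and 27257862 to 32986439 per DMSO library. Of the genes tested, 16.3% to 21.02% were at 0 in a foretinib library, against 4.41% to 5.48% in a cabozantinib library and 5.30% to 10.9% in a DMSO library, where replicate 2 was the highest. The neuroendocrine markers NEUROD1, INSM1 and CHGA were at 8976 or more in all 9 libraries, 0 of 10 neuroendocrine markers were at 0 throughout, and their summed level was 70376 to 73359 in foretinib, 67689.9 to 73257 in cabozantinib and 59216 to 64408 in DMSO. Listed at 0 in all 9 libraries were 4 of 6 leukocyte markers, PTPRC and CD3E among them, and 3 of 4 endothelial markers. So were 3 of 6 fibroblast markers and 1 of 5 epithelial markers. Other markers of these lists were found, such as fibroblast COL1A2 at 338 to 1194 and leukocyte CD68 at up to 755. The neuroendocrine marker DDC ran from 0 to 1675. Over the tested genes, log2 values of libraries of a group correlated at 0.575 to 0.597 in foretinib. They correlated at 0.710 to 0.727 in cabozantinib and 0.674 to 0.712 in DMSO. This lower agreement limits every foretinib value below. In these bulk samples fewer cells and less RNA per cell cannot be told apart, and the part of the zeros in the foretinib libraries in the results below was not tested.

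Nearly all of the 39 genes were expressed. CTSZ, a lysosomal carboxypeptidase, was listed at 0 in all 9 libraries, and the remaining 38 passed the filter of 10 or more in at least 3 libraries. Together they took 0.296% ± 0.0286 of all normalised reads in foretinib, 0.276% ± 0.00214 in cabozantinib and 0.292% ± 0.0104 in DMSO. Over the 38 tested genes together, libraries of the foretinib group differed most from each other. Of these genes, 3 were at 0 in each foretinib library, against 0 or 1 in each cabozantinib and DMSO library. The median coefficient of variation of the tested members was 53.7% in foretinib, 18.1% in cabozantinib and 32.01% in DMSO. At a mean of 1000 to 3000, where 18 of them lie, it was 58.2% in foretinib, 15.4% in cabozantinib and 31.3% in DMSO. For all 3474 tested genes of that level it was 49.8%, 24.5% and 28.4% in the same order. For the 9 members at 3000 to 10000 it was 22.6% in foretinib, 15.9% in cabozantinib and 29.4% in DMSO, so DMSO was highest there.

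**Figure D1:**
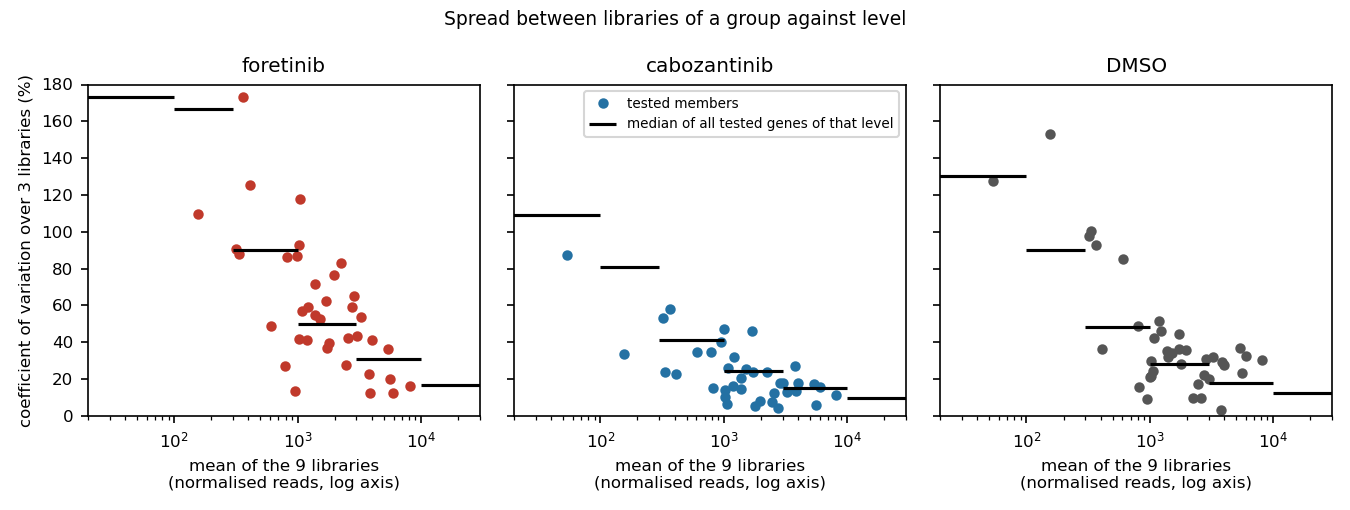
The coefficient of variation over the 3 libraries of a group (percent) is plotted against the mean of the 9 libraries (normalised reads, log axis) for each tested member, as dots, with black lines at the median of all tested genes of a level. Members near a mean of 1000 to 3000 sit around a median of 58.2% in foretinib, 15.4% in cabozantinib and 31.3% in DMSO.

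**Figure D2:**
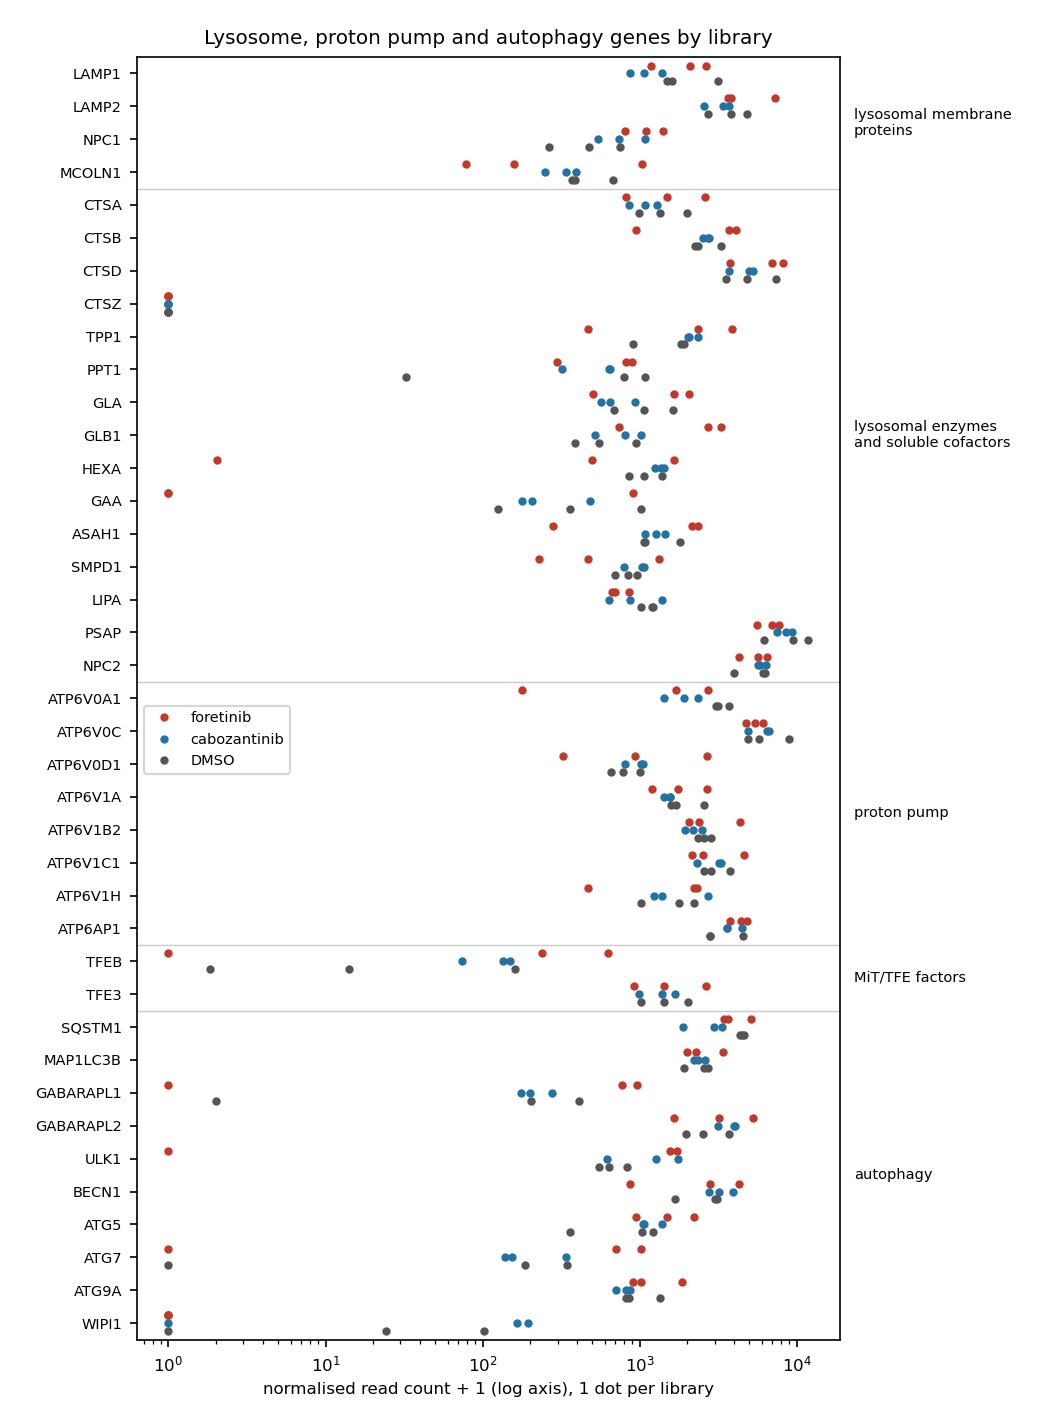
Normalised read counts plus 1 (log axis) are plotted for each of the 39 genes, 1 dot per library, grouped by role. Foretinib dots spread most widely for many genes but not for all, ATP6V0C and ATP6AP1 being among the exceptions. Several foretinib dots lie at 1 on the axis, which stands for a value of 0, and the CTSZ dots all lie there.

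No member passed the main test, limma, in any comparison. In limma-trend over all 12642 tested genes, 0 of 38 members had a Benjamini-Hochberg adjusted p below 0.05 in foretinib against DMSO, in cabozantinib against DMSO or in foretinib against cabozantinib, and the share called over all tested genes was 0% in each direction of each. edgeR on whole reads also called 0 members in each, and 0% of all genes. DESeq2 on whole reads called 1 member, GLB1, higher in foretinib than in DMSO, where it called 117 of 12073 genes higher (0.969%) and 533 lower (4.41%). It called 0 members in cabozantinib against DMSO, with 36 genes higher (0.298%) and 11 lower (0.0911%), and 0 between foretinib and cabozantinib, with 86 genes higher (0.712%) and 532 lower (4.41%) in foretinib. At an unadjusted p below 0.05, 1 member was higher in foretinib than in DMSO (2.17% of all tested genes were) and 1 lower (6.9%). In cabozantinib against DMSO 0 were higher (0.878%) and 1 lower (0.435%), and in foretinib against cabozantinib 0 were higher (1.83%) and 0 lower (8.08%).

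Median changes were small. The median log2 fold change of the 38 members was 0.04 for foretinib against DMSO, with 20 above 0 (36.2% of all tested genes) and 18 below (63.8%), while the median of all tested genes was -0.34. In cabozantinib against DMSO the median was 0.03, beside 0.04 for all tested genes, with 20 above 0 (53.3%) and 18 below (46.7%). Between foretinib and cabozantinib it was -0.13, beside -0.44 for all tested genes, with 17 above 0 (33.7%) and 21 below (66.3%). The sign of that members' median turned with edgeR (0.26), DESeq2 (0.30), the replicate block (0.12), a pseudocount of 100 (0.043) and genes at a mean of 500 or more (0.040). It also turned without foretinib replicate 1 (0.19), foretinib replicate 4 (0.026) or cabozantinib replicate 5 (0.0047). In foretinib against DMSO it turned after quantile normalisation (-0.014) and without foretinib replicate 2 (-0.17), foretinib replicate 4 (-0.080), DMSO replicate 2 (-0.17) or DMSO replicate 5 (-0.026). In cabozantinib against DMSO it turned with edgeR (-0.024), DESeq2 (-0.028), genes at a mean of 500 or more (-0.0064) and without DMSO replicate 2 (-0.052), so the direction of these small medians is not settled. Leaving out WIPI1, which was listed at 0 in every foretinib library, gave 0.07 and -0.13 for the foretinib comparisons. Low genes differed from high ones in their medians. Over all tested genes the median of foretinib against DMSO was -1.06 at a mean of 300 to 1000 and -0.00061 at 3000 to 10000. Summed reads showed no such fall at 300 to 1000 or at 100 to 300, where foretinib over DMSO was 1.023 and 0.993. Below 100, the level of WIPI1, summed reads did fall, with a ratio of 0.500. A library at 0 weighs more in a log2 fold change than in summed reads, and the part of zeros in these medians was not tested. For the low genes NPC1, LIPA, GAA, TFEB and GABARAPL1 the difference from the median of their level is given below. It is a position among genes of that level and not a change from DMSO. The summed level of all 39 genes was 83991 ± 8306 in foretinib, 75807 ± 1124 in cabozantinib and 79681 ± 2650 in DMSO. Foretinib over DMSO this sum had a ratio of 1.054, cabozantinib over DMSO 0.951 and foretinib over cabozantinib 1.108. The foretinib libraries ran from 75423 to 92008 and overlapped with both other groups, whereas the 3 cabozantinib libraries, at 74522 to 76608, lay just below the 3 DMSO libraries, at 76816 to 82045.

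**Figure D3:**
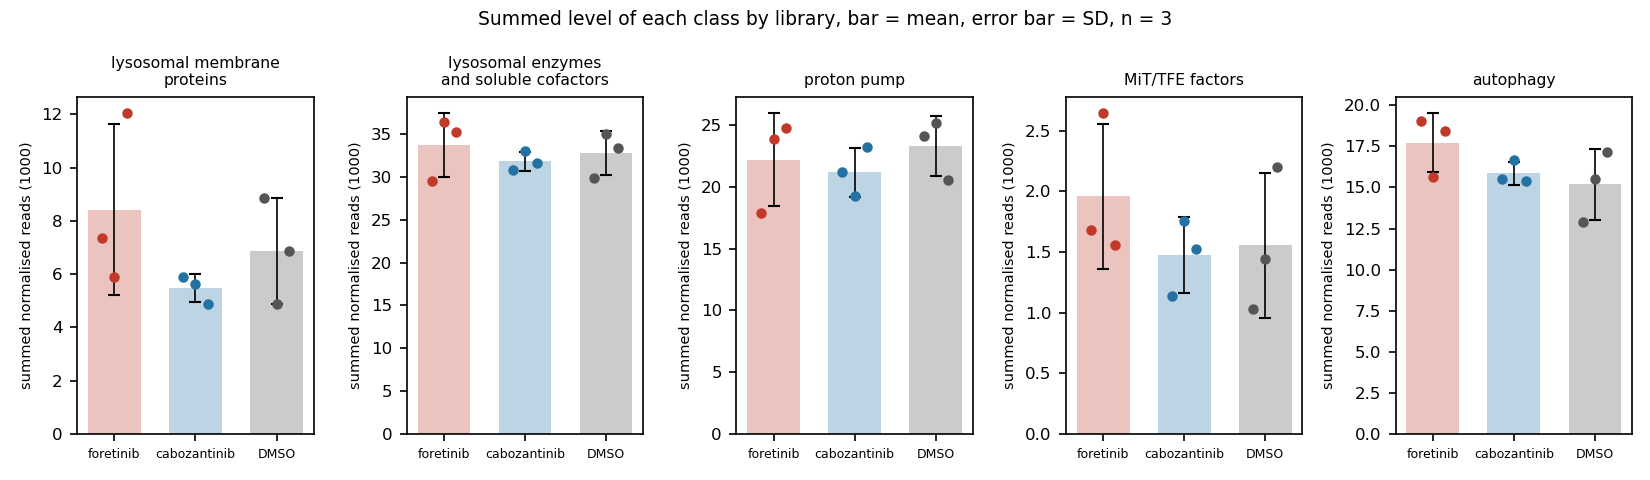
The sum of each role (in 1000 normalised reads) is shown by library: each dot is 1 library, the bar is the mean of 3 and the whisker is the SD. The foretinib group overlaps with DMSO in all 5 panels, and autophagy genes sum to 17713 in foretinib, 15861 in cabozantinib and 15189.6 in DMSO.

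The intervals show which sizes of change the data leave possible. A 95% interval lay wholly inside a 2-fold change in either direction for 10 of 38 members in foretinib against DMSO (13.4% of all tested genes), 9 in cabozantinib against DMSO (16.1%) and 6 in foretinib against cabozantinib (13.1%). The 10 were CTSD, PSAP, NPC2, ATP6V0C, ATP6V1A, ATP6V1B2, ATP6V1C1, ATP6AP1, SQSTM1 and MAP1LC3B, each at a mean over 1000. For the other 28 a change of 2-fold or more in at least 1 direction lay inside the interval.

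**Figure D4:**
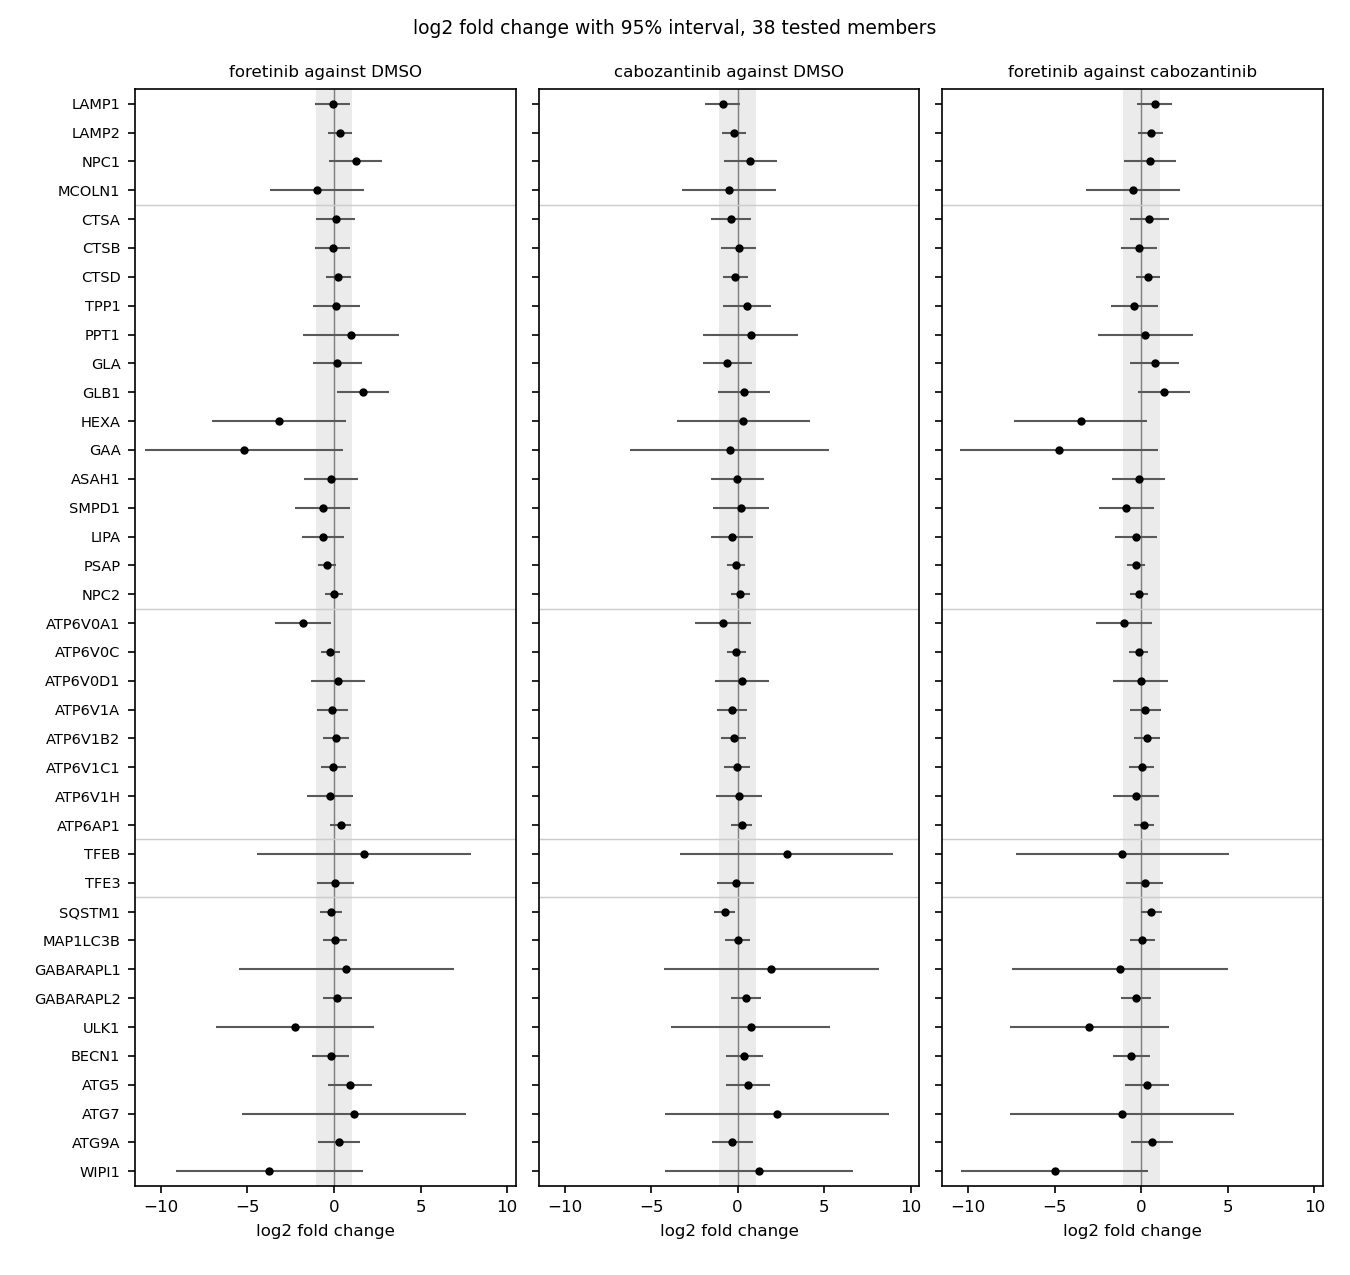
The log2 fold change of each tested member (dot) is drawn with its 95% limma interval (line) for the 3 comparisons, with the range of a 2-fold change either way in grey and grey lines between the roles. Intervals of PSAP, NPC2 and ATP6V0C stay inside the grey band in all 3 panels, while those of TFEB, GABARAPL1, ATG7 and WIPI1 span several units.

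Lysosomal membrane proteins came as LAMP1, LAMP2, NPC1 and MCOLN1. Their summed level was 8420 ± 3211 in foretinib, 5461 ± 527 in cabozantinib and 6869 ± 1985 in DMSO, and 0 of 4 passed in any comparison. LAMP1, an abundant glycoprotein of the lysosomal membrane, had 2099, 1187 and 2635 reads in foretinib, 1386, 1070 and 866 in cabozantinib, and 3148, 1490 and 1611 in DMSO. All cabozantinib libraries lay below all DMSO libraries, and foretinib overlapped with both groups. The log2 fold change of LAMP1 was -0.85 for cabozantinib against DMSO (SE 0.47, 95% interval -1.86 to 0.16) and did not pass (limma adjusted p = 0.9998). DMSO replicate 2 was the highest DMSO library for LAMP1, and without it the value was -0.51. For foretinib against cabozantinib LAMP1 was at 0.78 (95% interval -0.22 to 1.79).

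LAMP2, the second of these glycoproteins, had 3675, 3812 and 7274 reads in foretinib, 3718, 3414 and 2586 in cabozantinib, and 4856, 2742 and 3837 in DMSO. Foretinib replicate 4 stood well above the other 8 libraries. NPC1, which exports cholesterol from the lysosome, had 1408, 811 and 1094 reads in foretinib, 542, 736 and 1081 in cabozantinib, and 477, 264 and 745 in DMSO. It was the 1 member with all foretinib libraries above all DMSO libraries (3.99% of all tested genes), by 2.23-fold, with cabozantinib between and overlapping with both. Its log2 fold change for foretinib against DMSO was 1.24 (SE 0.71, 95% interval -0.28 to 2.76, limma adjusted p = 0.536), or 2.31 above the median of all tested genes at its level. MCOLN1, the calcium channel TRPML1, had 158, 77.8 and 1030 reads in foretinib, 247, 394 and 341 in cabozantinib, and 370, 386 and 679 in DMSO, so that foretinib held both the lowest and the highest value.

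**Figure D5:**
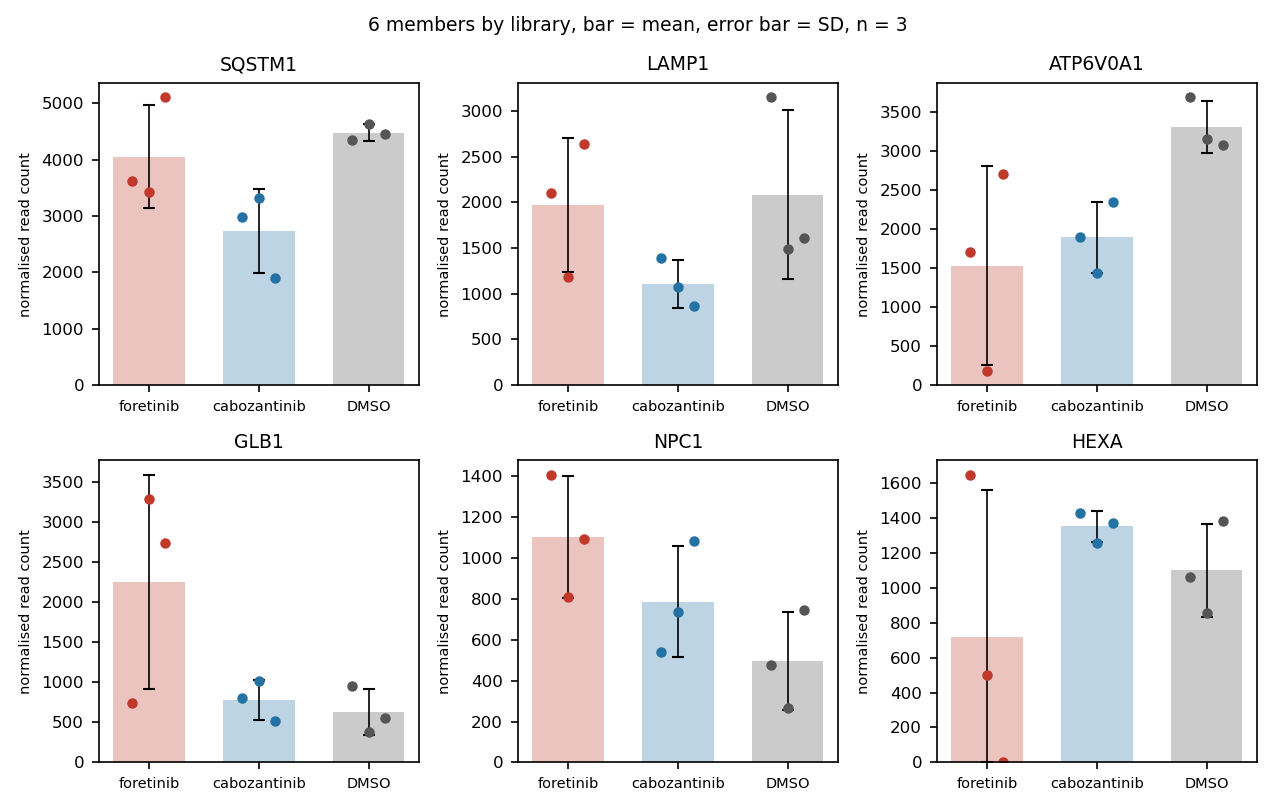
Normalised read counts of SQSTM1, LAMP1, ATP6V0A1, GLB1, NPC1 and HEXA by library: each dot is 1 library, the bar is the mean of 3 and the whisker is the SD; the lower foretinib error bar of HEXA would run below 0 and ends at the axis. SQSTM1 means are 4056 in foretinib, 2738 in cabozantinib and 4482 in DMSO.

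Enzymes and their soluble cofactors summed to 33707 ± 3695 in foretinib, 31805 ± 1129 in cabozantinib and 32766 ± 2604 in DMSO, and 0 of 14 tested passed in any comparison. GLB1, the lysosomal beta-galactosidase, had 743, 3285 and 2736 reads in foretinib, 808, 1017 and 522 in cabozantinib, and 952, 386 and 554 in DMSO. Foretinib replicates 2 and 4 lay above all other libraries and foretinib replicate 1 lay inside the DMSO range. Its log2 fold change for foretinib against DMSO was 1.68 (SE 0.69, 95% interval 0.19 to 3.16), the smallest unadjusted p of the members in this comparison (0.0295), and it did not pass over all genes (limma adjusted p = 0.526, and 0.0450 to 0.776 over the alternatives). Only DESeq2 on whole reads called it. Without foretinib replicate 1 it was at 2.35, and without foretinib replicate 2 at 1.28. For foretinib against cabozantinib GLB1 was at 1.32 (95% interval -0.16 to 2.80).

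HEXA, the alpha subunit of beta-hexosaminidase, had 1648, 498 and 1.05 reads in foretinib, 1425, 1255 and 1373 in cabozantinib, and 1061, 853 and 1384 in DMSO. Foretinib thus held the highest value of the 9 and the lowest, and its log2 fold change against DMSO (-3.18, 95% interval -7.03 to 0.67) was -0.25 without foretinib replicate 4. GAA, the enzyme that degrades lysosomal glycogen, held 2 copies of the full CLEAR consensus above, and MCOLN1 held 1. GAA was at 0, 905 and 0 in foretinib, 207, 481 and 177 in cabozantinib, and 1024, 125 and 358 in DMSO. Its mean in foretinib was 302 ± 522 and in DMSO 502 ± 467, and the log2 fold change of -5.21 (95% interval -10.95 to 0.52), or -4.15 from the median of all tested genes at its level, includes the zeros.

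The tested cathepsins overlapped between all groups. CTSD, an aspartic protease, had 8238, 3755 and 6938 reads in foretinib, 3725, 5251 and 4944 in cabozantinib, and 7366, 3545 and 4832 in DMSO, overlapping throughout. CTSB, a cysteine protease, was at 2934 ± 1737 in foretinib, 2678 ± 113 in cabozantinib and 2616 ± 575 in DMSO, with foretinib replicate 4 lowest at 942. CTSA, which also protects beta-galactosidase in a complex, was at 1639 ± 902 in foretinib, 1076 ± 220 in cabozantinib and 1442 ± 507 in DMSO.

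TPP1, a tripeptidyl peptidase, was at 2226 ± 1700 in foretinib, 2146 ± 173 in cabozantinib and 1555 ± 560 in DMSO. It was the 1 member with all cabozantinib libraries, at 2021 to 2343, above all DMSO libraries, at 911 to 1930 (5.18% of all tested genes), with a log2 fold change of 0.54 (95% interval -0.84 to 1.92). PPT1, a thioesterase that removes palmitate from proteins, was at 668 ± 325 in foretinib, 534 ± 185 in cabozantinib and 633 ± 540 in DMSO, where replicate 2 was at 31.6.

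Among enzymes of lipid and glycolipid breakdown, LIPA, the acid lipase that frees cholesterol from its esters, had 662, 853 and 696 reads in foretinib, 636, 862 and 1394 in cabozantinib, and 1026, 1216 and 1205 in DMSO. All foretinib libraries lay below all DMSO libraries, with a log2 fold change of -0.64 (95% interval -1.87 to 0.58). That value was 0.42 above the median of all tested genes at its level, although the LIPA reads themselves were lower than in DMSO. GLA, alpha-galactosidase A, was at 1408 ± 804 in foretinib, 714 ± 188 in cabozantinib and 1124 ± 474 in DMSO. ASAH1, acid ceramidase, was at 1603 ± 1151 in foretinib, 1267 ± 185 in cabozantinib and 1312 ± 418 in DMSO. SMPD1, acid sphingomyelinase, was at 677 ± 583 in foretinib, 962 ± 148 in cabozantinib and 834 ± 132 in DMSO.

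The soluble cofactors PSAP and NPC2 had the smallest standard errors of the 38 members. PSAP, the precursor of the saposins that present sphingolipids to their enzymes, had 5571, 7690 and 7008 reads in foretinib, 8567, 9335 and 7446 in cabozantinib, and 6213, 11810 and 9470 in DMSO. Foretinib overlapped with both groups, at -0.40 against DMSO (95% interval -0.93 to 0.12) and -0.33 against cabozantinib (95% interval -0.85 to 0.20). NPC2, which hands cholesterol to NPC1, had 4288, 5700 and 6443 reads in foretinib, 6356, 5798 and 5708 in cabozantinib, and 4000, 6270 and 6101 in DMSO. The 95% interval of NPC2 ran from -0.52 to 0.55 in foretinib against DMSO, from -0.38 to 0.69 in cabozantinib against DMSO and from -0.67 to 0.39 between foretinib and cabozantinib.

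The proton pump has a membrane sector, V0, through which protons pass, and a cytosolic sector, V1, that hydrolyses ATP. Its 8 genes summed to 22193 ± 3761 in foretinib, 21207 ± 1985 in cabozantinib and 23301 ± 2423 in DMSO, and 0 of 8 passed in any comparison. ATP6V0A1, an isoform of the large V0 subunit a, had 1702, 178 and 2706 reads in foretinib, 1903, 1430 and 2340 in cabozantinib, and 3684, 3150 and 3081 in DMSO. Both inhibitor groups lay below all DMSO libraries and overlapped with each other. Its log2 fold change was -1.81 for foretinib against DMSO (SE 0.75, 95% interval -3.44 to -0.19, limma adjusted p = 0.526) and -0.83 for cabozantinib against DMSO (95% interval -2.45 to 0.79). Foretinib replicate 2 set most of the foretinib value, which was -0.62 without it, and -0.98 for foretinib against cabozantinib became 0.21. The 2 comparisons share the DMSO libraries. Together with LIPA it made up the 2 members wholly below DMSO in foretinib (7.69% of all tested genes).

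ATP6V0C, the proteolipid that forms the rotating ring, had 4753, 5457 and 6095 reads in foretinib, 6628, 4895 and 6442 in cabozantinib, and 5731, 8934 and 4919 in DMSO. It overlapped in all comparisons, at -0.22 for foretinib against DMSO (95% interval -0.77 to 0.33); processed copies of this gene may share its reads. ATP6V0D1, the V0 subunit that links the ring to the central stalk, was at 1311 ± 1220 in foretinib, 958 ± 136 in cabozantinib and 813 ± 175 in DMSO.

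The catalytic subunit ATP6V1A had 2667, 1203 and 1751 reads in foretinib, 1569, 1429 and 1570 in cabozantinib, and 1580, 2588 and 1704 in DMSO, so that cabozantinib lay just below DMSO without overlap (-0.33, 95% interval -1.22 to 0.57). ATP6V1B2, its partner in the ATP-hydrolysing head, was at 2932 ± 1234 in foretinib, 2214 ± 279 in cabozantinib and 2594 ± 255 in DMSO. ATP6V1C1, of a stalk that holds head and membrane sector together, was at 3115 ± 1347 in foretinib, 2945 ± 532 in cabozantinib and 3061 ± 622 in DMSO. ATP6V1H, a regulatory subunit, was at 1672 ± 1041 in foretinib, 1788 ± 828 in cabozantinib and 1668 ± 608 in DMSO. ATP6AP1, an accessory protein of pump assembly, had 3745, 4836 and 4395 reads in foretinib, 4501, 3592 and 3606 in cabozantinib, and 4522, 2801 and 2804 in DMSO (0.39 for foretinib against DMSO, 95% interval -0.21 to 0.98).

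Of the transcription factors, TFE3 had narrower intervals than TFEB. TFE3 had 1438, 2641 and 923 reads in foretinib, 991, 1682 and 1393 in cabozantinib, and 1025, 1425 and 2042 in DMSO, overlapping throughout (0.08 for foretinib against DMSO, 95% interval -1.01 to 1.16). TFEB had 239, 0 and 630 reads in foretinib, 148, 72.7 and 133 in cabozantinib, and 0.832, 13.1 and 161 in DMSO. The foretinib mean was 4.99 times the DMSO mean, but the values overlapped and the log2 fold change of 1.73, or 3.79 from the median of its level, had a 95% interval of -4.43 to 7.89. Transcript levels of these factors do not show where their proteins are.

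Autophagy genes summed to 17713 ± 1795 in foretinib, 15861 ± 689 in cabozantinib and 15189.6 ± 2167 in DMSO, and 0 of 10 passed in any comparison. SQSTM1 encodes p62, the receptor that carries ubiquitinated cargo into autophagic vesicles. It had 3628, 3433 and 5107 reads in foretinib, 2992, 3325 and 1896 in cabozantinib, and 4354, 4637 and 4456 in DMSO. All cabozantinib libraries lay below all libraries of the other groups, and foretinib overlapped with DMSO. The cabozantinib mean was 0.611 of the DMSO mean, and the log2 fold change was -0.75 (SE 0.29, 95% interval -1.38 to -0.13, unadjusted p = 0.022, limma adjusted p = 0.9998). With 1 library left out it ran from -0.91 without cabozantinib replicate 4 to -0.51 without cabozantinib replicate 5. As the 2 groups did not overlap, leaving out 1 library could not turn its sign.

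SQSTM1 was also the member with the smallest unadjusted p between the 2 compounds. Foretinib stood at 4056 ± 915 and cabozantinib at 2738 ± 747, a log2 fold change of 0.58 (SE 0.29, 95% interval -0.04 to 1.21, limma adjusted p = 0.513). SQSTM1, LAMP1, ATP6V0A1 and ATP6V1A were the 4 members wholly below DMSO in cabozantinib (4.71% of all tested genes).

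The ATG8 family, whose proteins are joined to a lipid of the autophagic membrane, was measured by MAP1LC3B, GABARAPL1 and GABARAPL2. MAP1LC3B, the usual marker LC3B, had 2015, 3371 and 2300 reads in foretinib, 2230, 2590 and 2361 in cabozantinib, and 1930, 2724 and 2578 in DMSO. Its log2 fold changes were 0.07 in foretinib against DMSO (95% interval -0.64 to 0.77), 0.0028 in cabozantinib against DMSO (-0.70 to 0.71) and 0.07 between foretinib and cabozantinib (-0.64 to 0.77). GABARAPL2 had 3188, 1648 and 5242 reads in foretinib, 3148, 3964 and 4028 in cabozantinib, and 1961, 2537 and 3686 in DMSO, with foretinib covering the range of all other libraries. GABARAPL1 had 956, 0 and 777 reads in foretinib, 199, 175 and 275 in cabozantinib, and 201, 1.00 and 412 in DMSO. Foretinib replicates 1 and 4 were above and replicate 2 below all other libraries, and the log2 fold change of 0.72 for foretinib against DMSO, or 1.78 from the median of its level, had a 95% interval of -5.52 to 6.95, which leaves the direction unknown. Near-identical copies, MAP1LC3B2 and GABARAPL3, may share reads with MAP1LC3B and GABARAPL1.

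Among genes that start and build the vesicle, ULK1, the kinase that starts autophagy, had 1566, 1730 and 0 reads in foretinib, 615, 1766 and 1278 in cabozantinib, and 554, 636 and 834 in DMSO. BECN1, of the lipid kinase complex that acts next, was at 2666 ± 1730 in foretinib, 3289 ± 580 in cabozantinib and 2600 ± 800 in DMSO. ATG5, part of the conjugation machinery for ATG8 proteins, was at 1555 ± 644 in foretinib, 1171 ± 190 in cabozantinib and 869 ± 450 in DMSO (0.93 for foretinib against DMSO, 95% interval -0.35 to 2.22). ATG7, the enzyme that activates ATG8 proteins, was at 573 ± 519 in foretinib, 209 ± 112 in cabozantinib and 176 ± 172 in DMSO, with foretinib replicate 1 and DMSO replicate 5 at 0. ATG9A, a transmembrane protein of the early vesicle, had 1874, 1015 and 910 reads in foretinib and 814, 702 and 861 in cabozantinib, without overlap, and 813, 1346 and 849 in DMSO. WIPI1, which binds the lipid made by the BECN1 complex, was listed at 0 in all foretinib libraries, and had 193, 164 and 0 reads in cabozantinib and 0, 23.1 and 101 in DMSO.

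Foretinib and cabozantinib were compared directly as 1 pair at the same dose and time. In this comparison their structural difference, any difference in kinase inhibition and the zeros of the foretinib libraries cannot be told apart. Of the 38 members, 2 lay wholly higher in foretinib, SQSTM1 and ATG9A (4.49% of all tested genes), and 0 wholly lower (9.7%). After SQSTM1 the smallest unadjusted p were those of WIPI1, HEXA, GLB1 and GAA, of which only GLB1 had a log2 fold change above 0. WIPI1 was at -4.99 (95% interval -10.39 to 0.42), HEXA at -3.50 (-7.35 to 0.35) and GAA at -4.75 (-10.49 to 0.98). These 3 values include foretinib libraries at or near 0, and the GAA mean was 302 in foretinib and 288 in cabozantinib. No difference between the compounds passed, the limma adjusted p of the members running from 0.513 to 0.990. That does not show that they act alike: for 32 of the 38 the interval reached 2-fold or beyond. Among the 6 with narrower intervals were ATP6V1C1, at 0.02 (95% interval -0.72 to 0.76), and ATP6AP1, at 0.15 (95% interval -0.45 to 0.75).

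The 6 members with CACGTG in their windows did not all lie on the same side of 0. For foretinib against DMSO the log2 fold changes were -5.21 for GAA, -0.97 for MCOLN1, -0.07 for LAMP1, 0.09 for CTSA, 0.26 for CTSD and 0.22 for ATP6V0D1. For cabozantinib against DMSO they were -0.46 for GAA, -0.51 for MCOLN1, -0.85 for LAMP1, -0.38 for CTSA, -0.13 for CTSD and 0.25 for ATP6V0D1, and 0 of 6 passed in either. The 2 genes with the full consensus were both in the range of 300 to 1000 reads. There all tested genes had a median of -1.06 in foretinib against DMSO, while their summed reads had a ratio of 1.023.

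Other genes of the pathway gave no calls either. Of 136 further symbols, 131 were in the table and 118 were tested: other pump subunits, enzymes, membrane proteins and sorting receptors, nutrient sensing genes and autophagy genes. By limma 0 of 118 passed in any comparison. At an unadjusted p below 0.05, 3 were higher (2.54%) and 7 lower (5.93%) in foretinib than in DMSO, 0 in either direction for cabozantinib, and 3 higher (2.54%) and 9 lower (7.63%) in foretinib than in cabozantinib. Shares over all tested genes are those given above for the members. The median log2 fold change of the 118 was -0.43 in foretinib against DMSO, 0.09 in cabozantinib against DMSO and -0.69 between foretinib and cabozantinib.

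IGF2R, the receptor that sorts enzymes to lysosomes by their mannose 6-phosphate tags, had 2546, 2688 and 2516 reads in foretinib, 747, 758 and 802 in cabozantinib, and 237, 945 and 1665 in DMSO. Foretinib lay above all 6 other libraries, at 1.84 against DMSO (95% interval 0.44 to 3.24, limma adjusted p = 0.442) and 1.75 against cabozantinib (95% interval 0.35 to 3.14, limma adjusted p = 0.423). HGSNAT, an enzyme of heparan sulphate breakdown, had 1085, 408 and 517 reads in foretinib, 853, 1723 and 2050 in cabozantinib, and 2062, 1982 and 1834 in DMSO. Its log2 fold change for foretinib against DMSO was -1.68 (95% interval -2.85 to -0.51, limma adjusted p = 0.406). VPS39, of the complex that tethers vesicles to lysosomes, was at 2985 ± 1028 in foretinib, 1361 ± 170 in cabozantinib and 1305 ± 665 in DMSO. For foretinib against DMSO it was at 1.29 (limma adjusted p = 0.497).

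OPTN, another cargo receptor, was at 472, 0 and 0 in foretinib, 396, 912 and 934 in cabozantinib, and 562, 343 and 818 in DMSO. FNIP2, a partner of folliculin in nutrient sensing, was at 884, 46.1 and 0 in foretinib, 871, 1139 and 948 in cabozantinib, and 1005, 1031 and 1071 in DMSO. Both were among the 3 smallest p of the list between the compounds and did not pass (limma adjusted p = 0.407 for OPTN and 0.443 for FNIP2). For cabozantinib against DMSO the 3 smallest were MAP1LC3A, PLEKHM1 and SNAP29. MAP1LC3A, another LC3, was listed at 0 in DMSO and had 135, 0 and 236 reads in cabozantinib and 0, 0 and 240 in foretinib. PLEKHM1, an adaptor for fusion with lysosomes, was at 1052 ± 219 in cabozantinib and 462 ± 165 in DMSO without overlap. In foretinib PLEKHM1 was at 830 ± 415, overlapping with both. SNAP29, a protein of the same fusion step, was at 2514 ± 608 in cabozantinib, 1663 ± 410 in DMSO and 2197 ± 201 in foretinib. None of these 3 passed for cabozantinib against DMSO (limma adjusted p = 0.9998 for each).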

How the data were processed

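Each dish of cells gave RNA cleaned with an added DNase step; libraries came from Nugen's Encore Complete system, per the labels' protocols. The labels call the 3 libraries of a group biological triplicates. The authors deposited a signal per gene and library, which is the read count divided by 1 size factor. TopHat2 2.0.13, Cufflinks 2.2.1, HTSeq, DESeq2 and the build hs37d5 are named in the submitters' processing notes. Annotation, strand and filters are not given in the sources used. A gene and an overlapping antisense gene can therefore not be told apart. In every column 100% of values were whole multiples of 1 step within 1e-06 of a read, so whole reads were recovered for edgeR 4.0.16 and DESeq2 1.42.0, which were alternatives.

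Values were tested as log2(value + 1) with limma 3.58.1 (R 4.3.3, mean-variance trend), all 9 libraries in 1 model without covariates, for genes at 10 or more in at least 3 libraries. Fold changes are on that scale, so zeros move them away from the ratio of means. Adjusted p-values are Benjamini-Hochberg over the 12642 genes. Level classes are by the mean of the 9 libraries. Values of each library were given for the 5 members with the smallest p per comparison, the 8 with the highest mean, the ATG8 members, SQSTM1, TFEB and TFE3. Of the other pathway genes, the 3 with the smallest p per comparison were named. LIPA, TPP1, ATP6V1A, MCOLN1, ULK1, ATG9A and ATG7 were given in more detail after their values were seen. The members and lists were chosen with earlier results of these data known. Promoter windows are of GRCh38.p14 and were matched by symbol; no coordinate was taken from the deposited table. The scripts were tested on simulated data. Alternatives were other pseudocounts, filters and scalings, the count tests, fewer libraries and a replicate block.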

Additional observations from a re-analysis of the deposited data

How the results depend on the processing

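Of 1128 values of the named members under 9 settings that leave out a library and 11 others, 68 had the opposite sign and 1 had an adjusted p below 0.05, GLB1 for foretinib against DMSO (DESeq2, log2 fold change 1.84, adjusted p = 0.0450). Many of the 1128 values could not turn, so 68 of 1128 is not a measure of stability. Leaving out a library of the group not compared left a fold change as it was. So did the other filters and the fit on only the libraries compared. For all the values below the cause was not tested.

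limma called 0 of all tested genes in each comparison as reported. After quantile normalisation it called 1 in foretinib against DMSO. DESeq2 called 650 there (117 higher and 533 lower), 1 member among them, 47 in cabozantinib against DMSO and 618 between foretinib and cabozantinib. The members' median between foretinib and cabozantinib was 0.26 with edgeR, 0.30 with DESeq2 and 0.12 with the replicate block. With 1 library left out it was -0.13 to 0.19 there, the highest without foretinib replicate 1, and -0.17 to 0.071 in foretinib against DMSO, the lowest without DMSO replicate 2.

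In foretinib against DMSO the sign turned at NPC2 (TMM -0.017, quantile -0.093, edgeR -0.027), MAP1LC3B (quantile -0.028), WIPI1 (quantile 0.43) and CTSD (replicate block -0.0082). In cabozantinib against DMSO the sign turned at MAP1LC3B (edgeR -0.0041, DESeq2 -0.0074), CTSD (replicate block 0.059), GAA (replicate block 1.47), NPC2 (replicate block -0.042), TFE3 (replicate block 0.14) and WIPI1 (replicate block -1.02). In foretinib against cabozantinib the sign turned at TFEB (0.44 with a pseudocount of 100, quantile 2.39, edgeR 1.25, DESeq2 1.29, replicate block 1.86), GABARAPL1 (0.53 with a pseudocount of 100, quantile 1.16, edgeR 1.37, DESeq2 1.41), MAP1LC3B (quantile -0.041), GAA (edgeR 0.046, DESeq2 0.071), CTSD (replicate block -0.067), NPC2 (replicate block 0.30), ATP6V0C (replicate block 0.058) and GABARAPL2 (replicate block 0.14).

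With 1 library left out, values in foretinib against DMSO fell on both sides of 0 for ATP6V0C -0.40 to 0.026, GABARAPL1 -1.67 to 3.97, GABARAPL2 -0.20 to 0.63, LAMP1 -0.31 to 0.27, MAP1LC3B -0.15 to 0.22, NPC2 -0.20 to 0.18, TFE3 -0.32 to 0.44 and TFEB -0.053 to 4.60. With 1 library left out, values in cabozantinib against DMSO fell on both sides of 0 for ATP6V0C -0.27 to 0.16, CTSD -0.38 to 0.15, GAA -1.22 to 0.30, GABARAPL1 -0.44 to 3.41, MAP1LC3B -0.15 to 0.099, NPC2 -0.057 to 0.27, PSAP -0.33 to 0.13, TFE3 -0.37 to 0.13 and WIPI1 -0.64 to 3.73. With 1 library left out, values in foretinib against cabozantinib fell on both sides of 0 for ATP6V0A1 -1.75 to 0.21, GABARAPL1 -2.94 to 2.02, GABARAPL2 -0.69 to 0.15, MAP1LC3B -0.15 to 0.22, NPC2 -0.27 to 0.027, TFE3 -0.20 to 0.56 and TFEB -2.88 to 1.78.

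Same-numbered libraries did not deviate together: their correlations were -0.0022 to 0.0288 over 5 pairs, against -0.0244 to 0.0308 over 22 other pairs. The numbers were therefore not taken as pairs, and the replicate block called 0 members in each comparison. In the block, foretinib replicate 1 and cabozantinib replicate 3 had no same-numbered library and did not enter the fold changes. Its 0 calls and turned signs thus rest on fewer libraries and carry little weight. The summed levels were not refitted with the block.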
